A study of Homo sapiens with 26 samples.

Results

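The binding sites of FOXA1dbd and FOXA1nhaa, HALO-tagged forms of the forkhead transcription factor FOXA1, were compared in BJ fibroblasts, a cell line established from human foreskin. All rows of both deposited peak lists were used, and rows with the same coordinates in a list were counted once. This gave 28831 FOXA1dbd sites and 105591 FOXA1nhaa sites, together 134422 of the 399567 sites in the 5 full lists of the series. A site was called shared when it overlapped a site of the other list by at least 1 bp, and otherwise FOXA1dbd-only or FOXA1nhaa-only. Chromatin was immunoprecipitated with an antibody to HALO, a tag that the constructs carry as a fusion, and sequenced (ChIP-seq) after each construct had been expressed ectopically for 48 hours, with formaldehyde fixation and sonication in both groups. Among the 26 samples of the labels, each construct has 2 immunoprecipitated and 2 input libraries, and 1 peak list was analysed per construct. The lists give no replicate error and no read depth, so no test between conditions was possible. Intervals are 95% Wilson intervals for shares and exact order-statistic intervals for medians, and they cover counting error over sites only. The fibroblast label could not be checked against marker genes, because peak lists hold no expression values.

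FOXA1 binds DNA through a winged-helix (forkhead) domain, whose recognition helix lies in the major groove and reads a short core sequence. It is known in liver, breast and prostate cells as a pioneer factor, which can bind its sites on nucleosomes. In published work on FOXA1, NHAA names a variant in which an asparagine and a histidine of the recognition helix are replaced by alanine, which weakens contacts with the bases. The labels spell out neither dbd nor nhaa. BJ cells are fibroblasts, in which AP-1, a dimer of FOS and JUN family proteins, and TEAD, the DNA-binding partner of YAP, are known to occupy many enhancers.

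Sequences of some of the highest sites by fold, the enrichment that the authors' peak caller gave each row, are given as examples. Most were picked because they hold a forkhead or AP-1 core, defined below, so they do not show how frequent such DNA is. Each is printed 5′ to 3′ on the plus strand of GRCh37 (the hg19 build) with 50 bases on either side of the summit of the row, and positions are counted from 1 at the left end. Forkhead cores (TGTTTAC or TATTTAC, on either strand) and AP-1 cores (TGAGTCA, on either strand) are in capitals. The first 4 lie in shared sites. They are the highest shared site, between genes and 11.7 kb from the start of GOLGA8B (FOXA1dbd fold 13.4, FOXA1nhaa fold 18.8), and the 3 highest with a forkhead core within 50 bp of the summit. These lie in an intron of MITF, a transcription factor gene of pigment cells (9.65 and 12.8), between genes 316 kb from TFEC (9.47 and 12.5), and in an intron of HERC3 (8.83 and 10.7).
near GOLGA8B, chr15:34892345-34892445: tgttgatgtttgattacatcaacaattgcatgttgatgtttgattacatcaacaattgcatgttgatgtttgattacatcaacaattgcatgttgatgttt
MITF intron, chr3:69882353-69882453: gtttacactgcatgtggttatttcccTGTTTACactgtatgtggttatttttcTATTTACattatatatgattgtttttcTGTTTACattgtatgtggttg
nearest TFEC, chr7:115274801-115274901: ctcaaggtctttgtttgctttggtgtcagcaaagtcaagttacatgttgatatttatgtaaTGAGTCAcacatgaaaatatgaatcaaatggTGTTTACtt
HERC3 intron, chr4:89521382-89521482: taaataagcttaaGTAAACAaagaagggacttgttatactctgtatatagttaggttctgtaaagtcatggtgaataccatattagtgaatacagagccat

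The next 3 lie in FOXA1dbd-only sites. They are the highest of that class, in an intron of the tyrosine kinase gene SRC (fold 17.8), and sites with a forkhead core between genes 255 kb from CCDC91 (14.5) and in an intron of NDUFS4, which encodes a subunit of mitochondrial complex I (12.8).
SRC intron, chr20:36001632-36001732: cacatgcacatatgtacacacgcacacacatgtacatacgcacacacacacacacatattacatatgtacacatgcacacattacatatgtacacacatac
nearest CCDC91, chr12:28987688-28987788: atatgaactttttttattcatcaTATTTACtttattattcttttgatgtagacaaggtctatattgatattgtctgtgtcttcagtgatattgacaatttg
NDUFS4 intron, chr5:52970588-52970688: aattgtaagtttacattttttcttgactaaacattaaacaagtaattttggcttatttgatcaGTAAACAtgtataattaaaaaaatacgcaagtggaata

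The last 5 lie in FOXA1nhaa-only sites. They are the highest of that class, in an intron of the myosin gene MYO16 (fold 26.6), 3 sites with a forkhead core, in an exon of a non-coding transcript within ZEB2 (21.5), between genes 18.4 kb from AASDHPPT (18.2) and between genes 192 kb from ANKRD50 (17.0), and the highest with an AP-1 core, between genes 149 kb from GBE1 (14.5).
MYO16 intron, chr13:109406473-109406573: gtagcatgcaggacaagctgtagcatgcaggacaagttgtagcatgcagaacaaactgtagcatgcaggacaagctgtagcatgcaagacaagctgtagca
ZEB2, chr2:145253059-145253159: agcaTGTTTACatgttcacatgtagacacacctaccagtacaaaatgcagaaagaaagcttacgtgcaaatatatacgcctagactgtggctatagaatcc
nearest AASDHPPT, chr11:105980571-105980671: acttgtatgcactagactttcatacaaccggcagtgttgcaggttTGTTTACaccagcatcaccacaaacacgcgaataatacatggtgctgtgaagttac
nearest ANKRD50, chr4:125826029-125826129: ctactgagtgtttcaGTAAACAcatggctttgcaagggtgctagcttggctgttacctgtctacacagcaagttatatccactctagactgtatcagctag
nearest GBE1, chr3:81478422-81478522: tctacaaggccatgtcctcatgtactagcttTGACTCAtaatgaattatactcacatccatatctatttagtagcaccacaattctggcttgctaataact

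Several of these sequences are repetitive. Near GOLGA8B, every base equalled the base 30 positions further on (100% of the positions compared), and no core was present. The GOLGA8 genes form a duplicated family, so reads there may come from near-identical copies. In the MITF intron 82.4% of the bases equalled the base 27 positions further on, and the forkhead cores began at positions 27, 54 and 81. In the MYO16 intron the corresponding share was 95.5% at a shift of 57 bases. The site in SRC is an array of CA and TA steps. Purines and pyrimidines alternated over 81 bp without a break in its central 200 bp, a run that begins before the printed stretch. The site nearest TFEC held an AP-1 core at position 62 and a forkhead core at position 93.

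The 2 lists differ in how their rows are cut, which touches every comparison below. Of the FOXA1dbd sites 44.5% had a start or end that was also a start or end in the deposited list of FOXA1, the construct whose label names no variant and which was expressed in the same cells for the same time, against 0.382% of the FOXA1nhaa sites. Of the FOXA1dbd sites 96.2% overlapped a FOXA1 row, and 99.6% of these lay wholly inside it. The FOXA1nhaa sites overlapped FOXA1 rows in 58.4% of cases, and 23.8% of those lay wholly inside. Rows had a median width of 217 bp in the FOXA1dbd list and 357 bp in the FOXA1nhaa list. In 2581 FOXA1dbd rows (8.95%) the summit fell outside the row, and these rows are represented by their midpoint or left out where a summit was needed. Peak names carry more than 1 prefix in each list, and the most frequent prefix accounts for 89.8% of the FOXA1dbd and 95.1% of the FOXA1nhaa sites. The rarest FOXA1dbd prefix, which begins with WT_FOX, names 322 sites, of which 93.5% had a FOXA1 edge. The second most frequent FOXA1nhaa prefix names 4184 sites, of which 32.7% were shared with FOXA1dbd, against 14.1% for the most frequent, and 25.4% held a forkhead core, defined above, against 13.1%. Whether rows of several peak calls were merged is not given in the sources used here. How the rows came to be cut was not tested, and results are given inside and outside FOXA1 rows where this moved them.

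By the rule of 1 bp, FOXA1dbd sites met a FOXA1nhaa site more often than FOXA1nhaa sites met a FOXA1dbd site. Of the 28831 FOXA1dbd sites 15932 were shared, which is 55.3% (54.7 to 55.8), and 12899 were FOXA1dbd-only. Of the 105591 FOXA1nhaa sites 15623 were shared, which is 14.8% (14.58 to 15.01), and 89968 were FOXA1nhaa-only. Whether most FOXA1dbd sites were shared depended on the rule, since the FOXA1dbd share was 46.3% when centres had to lie within 200 bp and 34.95% in the top 50% of each list by fold, where the FOXA1nhaa share was 9.56%. The FOXA1nhaa list covers 1.502% of the genome and the FOXA1dbd list 0.236%, so both shares exceed the covered fraction. The pairing was close to 1 to 1, since 15804 of the shared FOXA1dbd sites met 1 FOXA1nhaa row and no site met more than 3. Of the shared FOXA1dbd sites 57.2% lay wholly inside the FOXA1nhaa row, and the median overlap was 210 bp.

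The overlap was concentrated where FOXA1 also had a row, as were the FOXA1dbd sites themselves, of which 96.2% overlapped a FOXA1 row. Inside FOXA1 rows 57.0% of FOXA1dbd sites (56.5 to 57.6) and 25.2% of FOXA1nhaa sites (24.8 to 25.5) were shared. Outside FOXA1 rows the shares were 10.1% of 1095 FOXA1dbd sites (8.49 to 12.1) and 0.250% of 43957 FOXA1nhaa sites (0.208 to 0.301). With only 1095 FOXA1dbd sites there, few FOXA1nhaa sites could be shared. The 0.236% of the genome covered by the whole FOXA1dbd list is no baseline for the 0.250%, since most of that list lies in FOXA1 rows. The coverage by the 1095 sites alone was not computed. FOXA1dbd sites with a FOXA1 edge were shared in 48.9% of cases (48.0 to 49.7), and those without such an edge in 60.4% (59.6 to 61.1). Distances from private sites to the other list are given without a comparison to random positions, which was not made. The median distance to the nearest row of the other list was 5.05 kb for FOXA1dbd-only sites, of which 11.1% lay within 500 bp. For FOXA1nhaa-only sites it was 19.6 kb, with 2.61% within 500 bp and 10.0% beyond 100 kb.

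Strong sites were shared more often than weak ones, mainly in the top quintile of each list. Split into quintiles of fold, FOXA1dbd sites were shared in 54.7%, 52.7%, 53.5%, 54.0% and 61.6% of cases from the lowest to the highest. The FOXA1nhaa sites were shared in 12.3%, 11.4%, 12.5%, 14.9% and 22.8%. The first 4 FOXA1dbd quintiles had like shares, and the highest had an interval of 60.3 to 62.8 that overlapped none of theirs. In the FOXA1dbd list row width moved with sharing more than fold did. The narrowest FOXA1dbd quintile, with a median width of 112 bp, was shared in 42.3% of cases and the widest, with a median of 362 bp, in 73.9%. For FOXA1nhaa the widths were 232 and 649 bp and the shares 9.31% and 24.3%. Inside FOXA1 rows the FOXA1nhaa shares went from 21.1% to 29.7% by width and from 22.1% to 31.5% by fold, lowest to highest quintile. Under the rule of 1 bp a wider row also meets another row more readily. The part of width in the fold pattern was not tested beyond the width classes given next.

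**Figure D1:**
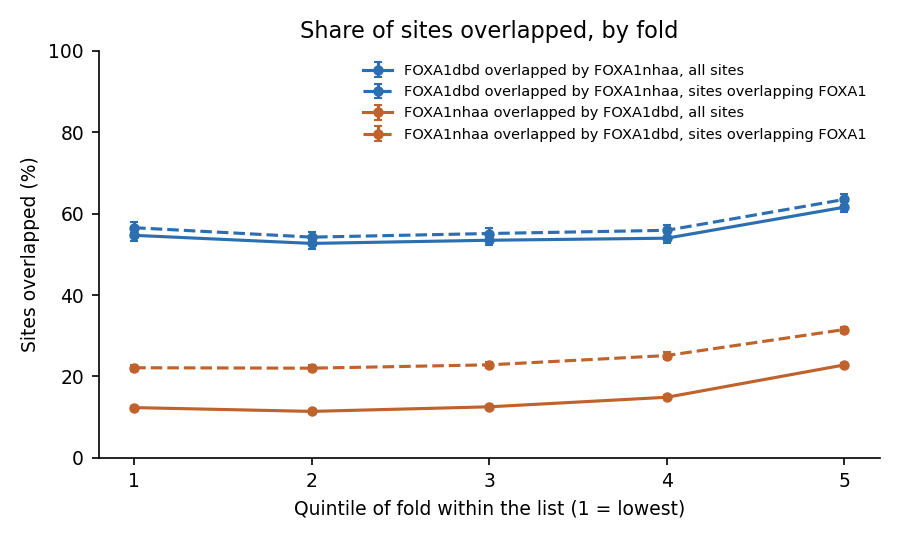
The share of sites overlapped by the other list (vertical axis, %) is plotted against the quintile of fold within each list (horizontal axis, 1 the lowest), for all sites (solid lines) and for sites overlapping FOXA1 rows (dashed lines), with 95% Wilson intervals. The FOXA1dbd lines run between 52.7% and 63.5% and the FOXA1nhaa lines between 11.4% and 31.5%, and each is highest in quintile 5.

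The fold itself differed little between shared and private sites. The median fold of FOXA1dbd sites was 5.26 (5.22 to 5.29) when shared and 5.14 (5.13 to 5.17) when private, a ratio of 1.02 (1.01 to 1.03). With only the most frequent peak-name prefix of each list the ratio was 1.00. In the FOXA1nhaa list the medians were 6.25 and 5.65, a ratio of 1.11 (1.10 to 1.11). Within width quintiles the FOXA1dbd ratio lay at 1.01, 0.987, 0.984, 0.995 and 1.06 from narrow to wide. The FOXA1nhaa ratio went from 0.955 in the narrowest to 1.08 and 1.09 in the 2 widest, so narrow shared FOXA1nhaa sites had lower folds than narrow private ones. The FOXA1nhaa ratio of 1.11 became 1.06 (1.06 to 1.07) inside FOXA1 rows.

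The folds of a shared site in the 2 lists were almost uncorrelated. Over the 16062 overlapping pairs the Spearman correlation of the folds was 0.041, that of the −log10 q-values 0.053 and that of the widths 0.090. The pairs share the genome position and the FOXA1 row, and no p-value is given. Shared sites in the top quintile of FOXA1dbd fold and the bottom quintile of FOXA1nhaa fold numbered 536, and 952 had the opposite combination. Those high in both lists numbered 1217 and those low in both 527. These counts follow in part from unequal totals. The bottom and top quintiles held 3152 and 3550 shared FOXA1dbd sites and 2606 and 4819 shared FOXA1nhaa sites. Expected counts were not computed. AP-1 cores were present in 25% (21.5 to 28.8) of the first group (536 sites) and 16.3% (14.1 to 18.8) of the second (952 sites), so these intervals do not overlap. Sites high in both lists had 22.4% (20.2 to 24.9) and those low in both 18.6% (15.5 to 22.1). Over all FOXA1dbd sites, shared or not, the AP-1 share was 16.8% in the bottom and 21.7% in the top quintile of FOXA1dbd fold. The forkhead core was present in 20.5% of the first group and 19.9% of the second, which cannot be distinguished.

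The named shared sites were chosen for a high rank in both lists, by the lower of their within-list fold percentiles. Besides the site near GOLGA8B, the 8 highest include introns of TRPS1 (FOXA1dbd fold 11.3, FOXA1nhaa fold 12.9), a zinc-finger transcription factor gene, of SLC2A9 (10.4 and 14.9), a urate transporter gene, of the transcription factor gene GLIS3 (10.1 and 13.3), of FYB2 (10.2 and 12.2) and of the cytokine gene IL26 (12.5 and 11.9). The remaining sites lie nearest GUCY1A1 (10.5 and 13.5), a subunit of soluble guanylate cyclase, and DSEL (10.4 and 13.2). None of these 8 holds a forkhead core in its central 200 bp, and those in SLC2A9 and GLIS3 hold an AP-1 core. All 8 also overlap FOXA1 rows. Among the 8 highest FOXA1dbd-only sites, 7 hold an unbroken purine-pyrimidine alternation of at least 35 bp and the site nearest CCDC91 does not. These 7 lie in SRC and CAMTA1 and nearest NPBWR1, BOD1L1, CLIP2 and IRX6, with folds from 13.1 to 17.8, and BOD1L1 is nearest to 2 sites. The 8 highest FOXA1nhaa-only sites hold no alternation over 10 bp. Besides the sites printed above they include introns of DYRK1A (18.2), a kinase gene, and LDAH (17.5), a UTR of CPEB3 (18.0) and sites nearest SSTR4 (19.1) and PRSS12 (17.8). The site in MYO16 is the only one of those 8 that lies outside FOXA1 rows.

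At shared sites the summits, the positions of highest signal, lay about as far apart as the midpoints of the rows. Over the 14797 shared sites with a usable FOXA1dbd summit the median distance between the FOXA1dbd and FOXA1nhaa summits was 74 bp (73 to 76), with quartiles of 33 and 147 bp. The summits were within 25 bp of each other at 19.4% of sites and within 100 bp at 61.4%, and 16.2% were more than 200 bp apart. Over all 15932 shared FOXA1dbd sites the median distance between row midpoints was 71 bp (70 to 73), with 63.3% within 100 bp. Rows called shared overlap, which by itself keeps such distances short. The median summit distance was 82 bp for the lowest quintile of FOXA1dbd fold and 61.5 bp (59 to 65) for the highest. It was 60 bp where the FOXA1nhaa row was in the narrowest and 116 bp where it was in the widest quintile of width. Sites with an AP-1 core had a median distance of 68 bp (65 to 72), and those without one 76 bp (74 to 78). With a forkhead core the median was 81 bp (76 to 85) and without one 73 bp (71 to 75). FOXA1nhaa rows with the second most frequent peak-name prefix (1312 pairs) had a median of 49.5 bp, against 78 bp for the most frequent prefix.

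**Figure D2:**
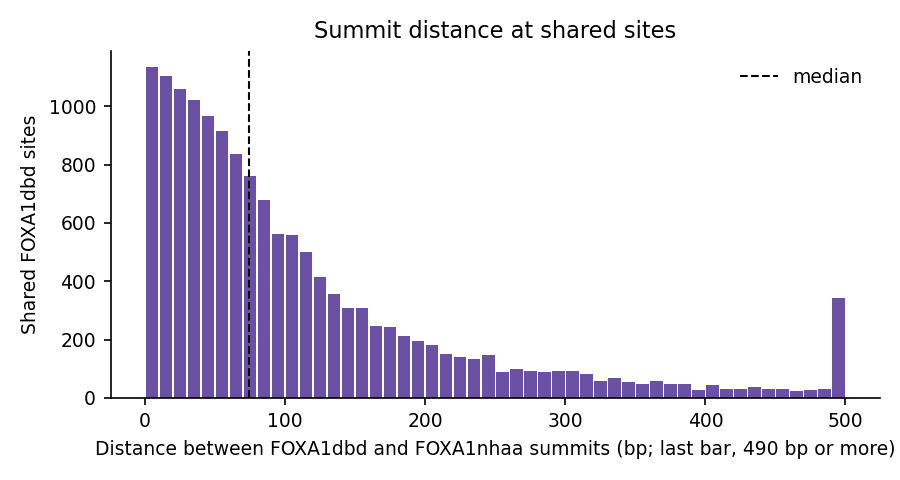
Histogram of the distance between the FOXA1dbd and FOXA1nhaa summits in 10 bp bins (horizontal axis, bp, the last bar holding 490 bp or more) over shared FOXA1dbd sites (vertical axis, number of sites). The counts fall from the first bar outward, and the dashed line marks the median of 74 bp.

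Forkhead cores were most frequent at FOXA1dbd-only sites and least frequent at FOXA1nhaa-only sites. In the central 200 bp a core was present in 24.0% of FOXA1dbd-only sites (23.3 to 24.8), 20.5% of shared sites read at the FOXA1dbd row (19.9 to 21.2), 17.4% of shared sites read at the FOXA1nhaa row (16.8 to 18.0) and 13.0% of FOXA1nhaa-only sites (12.7 to 13.2). Over all 14292991 windows of 200 bp in the genome the share was 7.29%. The FOXA1nhaa-only share was 14.5% inside and 11.3% outside FOXA1 rows. Both forms of the core had this order, since TGTTTAC was present in 10.2% of FOXA1dbd-only and 5.82% of FOXA1nhaa-only sites, and TATTTAC in 15.4% and 7.64%. The same letters read backwards (CATTTGT or CATTTAT, on either strand), used as a comparison of like base composition, were present in 18.5%, 17.7%, 16.8% and 16.8% of the classes in the same order, and in 12.3% of genome windows. Sites with at least 2 forkhead cores made up 3.96% of FOXA1dbd-only and 1.01% of FOXA1nhaa-only sites. A match is a description of the letters and not evidence of contact.

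The AP-1 core had another order, with its highest share at shared sites. It was present in 20.3% of shared sites (19.7 to 20.9), 16.4% of FOXA1dbd-only sites (15.8 to 17.1) and 6.07% of FOXA1nhaa-only sites (5.92 to 6.23), against 3.05% of genome windows. Read at the FOXA1nhaa row the shared sites gave 15.8% (15.2 to 16.3), so the value depends on which row is centred. In the top 50% of each list by fold the FOXA1dbd-only share was 19.3% (18.5 to 20.1) and the shared one 20.6% (19.6 to 21.8), and these no longer differ beyond counting error. FOXA1nhaa-only sites had 6.50% inside and 5.62% outside FOXA1 rows. A forkhead and an AP-1 core occurred together in 3.24% of shared, 2.60% of FOXA1dbd-only and 0.694% of FOXA1nhaa-only sites, and in 0.199% of genome windows. Neither core was present in 62.4%, 62.2% and 81.7% of these classes.

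**Figure D3:**
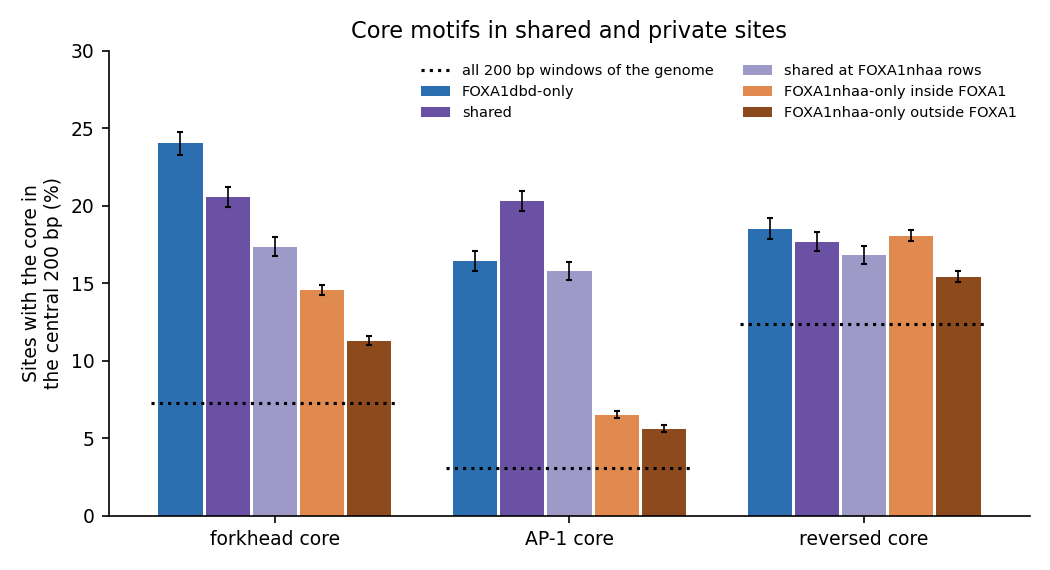
Share of sites with a forkhead core, an AP-1 core or the reversed forkhead core in the central 200 bp (vertical axis, %), for the 5 classes of site, with 95% Wilson intervals and dotted lines for all 200 bp windows of the genome. The forkhead bars fall from 24.0% to 11.3%, the AP-1 bars are highest at shared sites (20.3%), and the reversed core stays between 15.4% and 18.5%.

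The core shares were also read at matched base composition. All classes were AT-rich, with median GC contents of 33.0% (FOXA1dbd-only), 34.0% (shared) and 34.5% (FOXA1nhaa-only) against 40.0% for genome windows. When sites were divided by GC content, FOXA1nhaa-only sites had fewer forkhead and fewer AP-1 cores than FOXA1dbd-only and shared sites in each of the 5 classes. In the lowest GC class (30% or less) the forkhead core was present in 32.6% of FOXA1dbd-only, 28.8% of shared and 16.01% of FOXA1nhaa-only sites. In the highest (38.5% or more) the shares were 13.3%, 13.9% and 9.67%, so there the FOXA1dbd-only and shared sites did not differ. The AP-1 core was present in 6.39%, 10.5% and 4.83% of sites in the lowest class and in 27.5%, 29.8% and 8.40% in the highest.

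Cores were placed nearer the summit at FOXA1dbd sites than at FOXA1nhaa sites. Of the sites with a forkhead core in the 200 bp, the core was within 25 bp of the summit at 38.9% (37.1 to 40.7) of FOXA1dbd-only sites, 35.2% (33.5 to 36.9) of shared sites, 31.5% (29.8 to 33.3) of shared sites read at the FOXA1nhaa summit and 29.2% (28.4 to 30.1) of FOXA1nhaa-only sites. For the AP-1 core the shares were 34.1%, 32.5%, 29.1% and 26.8% in the same order. For the reversed core they were 29.7%, 27.1%, 27.1% and 27.5%. The FOXA1nhaa-only AP-1 share (25.7 to 28.0) thus overlapped that of the reversed core (26.8 to 28.2). The forkhead share in FOXA1nhaa-only sites was above the reversed core by a small margin.

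**Figure D4:**
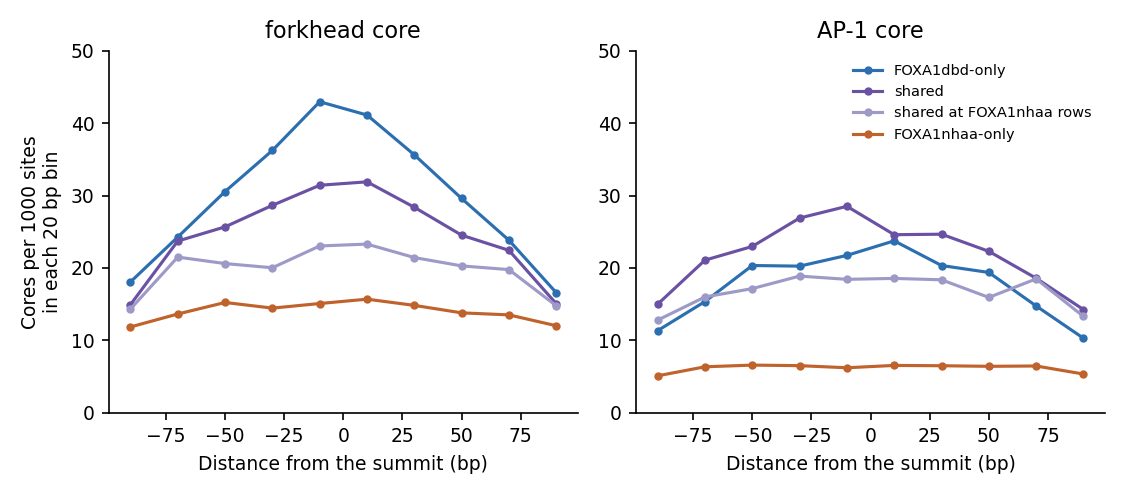
Number of forkhead cores (left) and AP-1 cores (right) per 1000 sites in each 20 bp bin (vertical axis) by distance from the summit (horizontal axis, bp). The FOXA1dbd-only and shared lines rise toward the summit for both cores, while the FOXA1nhaa-only lines are nearly level.

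Seen from the cores, a FOXA1dbd site with an AP-1 core was shared more often and one with a forkhead core less often. FOXA1dbd sites with any AP-1 core were shared in 60.4% of cases (59.1 to 61.7) and those without in 54.1% (53.4 to 54.7). With any forkhead core the share was 51.4% (50.1 to 52.6) and without 56.4% (55.7 to 57.0). In the FOXA1nhaa list both cores went with more sharing: 31.1% (30.1 to 32.1) of sites with an AP-1 core were shared against 13.5% without, and 18.9% (18.3 to 19.5) with a forkhead core against 14.2% without. Sites with both cores were shared in 60.6% of 852 FOXA1dbd and 37.3% of 995 FOXA1nhaa cases. The AP-1 pattern had the same direction in each width quintile of both lists, from 46.2% against 41.5% in the narrowest to 78.5% against 72.8% in the widest FOXA1dbd rows. Inside FOXA1 rows the AP-1 values were 62.5% against 55.8% for FOXA1dbd and 44.8% against 23.3% for FOXA1nhaa.

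Other motifs of factors known from fibroblasts or liver were searched in the same windows. The TEAD motif GGAATG was present in 12.7% of FOXA1dbd-only, 15.6% of shared and 12.5% of FOXA1nhaa-only sites, against 10.6% of genome windows. The RUNX motif TGTGGTT was at 5.38%, 5.78% and 4.52%, against 3.84%. The GC box GGGCGG, a promoter element, was at 0.256%, 0.220% and 0.232%, against 2.88%. A liver motif, CAAAGTCCA of HNF4, was at 0.271%, 0.264% and 0.192%, against 0.253%. The motif of CEBP, TTGCGCAA, was present in 5 FOXA1dbd-only, 9 shared and 20 FOXA1nhaa-only sites, which is 0.0388%, 0.0565% and 0.0222% against 0.0210%, with overlapping intervals between the private classes. The ETS motif CCGGAAG was at 0.124%, 0.176% and 0.151%, against 0.467%. The NFI half-site TTGGCA was at 10.3%, 11.2% and 10.5%, against 10.02%, and the E-box CATCTG of TWIST at 12.3%, 13.7% and 14.1%, against 12.8%. Each of these was searched on both strands. Only 1 FOXA1dbd and 11 FOXA1nhaa sites had a GC content of at least 60%, which 3.13% of genome windows reach.

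A second sequence feature separated the private classes, the alternation of purines and pyrimidines. Among all 2080 hexamers (each pooled with its reverse complement), 70 (3.37%) were over 1.5 times as frequent in FOXA1dbd-only as in FOXA1nhaa-only sites, and 138 (6.63%) the reverse. The highest ratios belonged to CGTATA (2.37, present in 3.95% against 1.67% of sites), ACGCAC (2.37) and CACACG (2.33), followed by CCGCGG (2.33, present in 0.0388% against 0.0167%), ACGCGT (2.24) and TACGTA (2.19). In all of these 6 but CCGCGG purines and pyrimidines alternate. The lowest included GCTGCA (0.383, 4.99% against 13.0%) and AGCTGC (0.432, 5.13% against 11.9%). GAGTCA and GACTCA, which are parts of the AP-1 core, were the hexamers most above the genome at shared sites, 3.09 and 2.99 times.

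Because of these hexamers, and so after their values were seen, runs of at least 20 bp in which purines and pyrimidines alternate without a break were counted in the central 200 bp. Such runs were present in 11.3% of FOXA1dbd-only sites (10.8 to 11.9), 5.49% of shared sites (5.14 to 5.85) and 1.21% of FOXA1nhaa-only sites (1.14 to 1.29), against 1.47% of genome windows. The share rose with FOXA1dbd fold from 4.84% in the lowest to 14.98% in the highest quintile. A run was present in 54 of the 100 highest FOXA1dbd sites. Runs were also more frequent at the strongest FOXA1nhaa sites, with 1.43% for fold quintile 1, 1.56% for quintile 4 and 3.09% for quintile 5. They were present in 30 of the 100 highest FOXA1nhaa sites, but in 7 of the 100 highest FOXA1nhaa-only sites. FOXA1dbd sites with a run were shared in 37.5% of cases (35.6 to 39.5), against 55.3% of all FOXA1dbd sites. FOXA1nhaa sites with a run were shared in 40.9% (38.7 to 43.1), against 14.8% of all FOXA1nhaa sites. AP-1 cores were rare at FOXA1dbd-only sites with a run (2.75%, against 18.2% without), and forkhead cores were present in 21.1%, against 24.4%. Tandem repeats, called where at least 80% of bases equalled the base 2 to 60 positions further on, made up 0.403% of FOXA1dbd-only, 0.339% of shared and 0.040% of FOXA1nhaa-only sites, against 0.148% of genome windows. They were 11 of the 100 highest shared sites. Repetitive DNA can be hard to map uniquely, and its part in these counts was not tested.

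Shared sites were also the ones most often found with the other FOXA1 forms. FOXA1 rows overlapped 99.3% of shared, 92.4% of FOXA1dbd-only and 51.3% of FOXA1nhaa-only sites. Since 96.2% of all FOXA1dbd sites overlapped a FOXA1 row, the shares of shared and FOXA1dbd-only sites could hardly be low. The FOXA1rraa list, of a further FOXA1 variant, overlapped 80.1% (79.5 to 80.7), 39.4% (38.5 to 40.2) and 31.99% (31.7 to 32.3). The list of HNF4A, a nuclear receptor of liver and gut, overlapped 4.59% (4.28 to 4.93), 4.05% (3.73 to 4.41) and 1.33%, so the shared and FOXA1dbd-only intervals overlap. No comparison of these shares with random positions was made. These lists come from the same cell line and the same tag antibody.

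By position, all 3 classes favoured introns and avoided the space between genes. Introns held 59.96% of FOXA1dbd-only, 64.1% of shared and 64.0% of FOXA1nhaa-only sites, and 52.3% of genome windows. The space between genes held 27.1%, 21.3% and 22.2%, against 36.9%. For FOXA1nhaa-only sites the share between genes was 17.8% inside and 26.9% outside FOXA1 rows. Transcription starts within 1000 bp were found at 8.70% (8.22 to 9.20), 9.73% (9.28 to 10.2) and 8.37% (8.19 to 8.55) of the classes, against 7.504% of genome windows. The FOXA1nhaa-only start share was 9.37% (9.10 to 9.64) inside FOXA1 rows, which overlaps the interval of shared sites. Outside FOXA1 rows it was 7.32% (7.08 to 7.56), not above the genome windows. In the top 50% of each list by fold the shared value was 8.82%, and it no longer stood above the private classes (8.66% and 8.59%). At starts the sites stayed AT-rich, with median GC contents of 34.0%, 35.0% and 35.0%. Forkhead cores were present in 26.0% of the 1122 FOXA1dbd-only sites at starts and 23.8% of those elsewhere. The 984 FOXA1dbd-only sites outside FOXA1 rows were placed differently from the rest: 45.6% (42.5 to 48.8) lay between genes and 3.66% (2.65 to 5.02) at a start.

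Genes were described by the sites within the gene body or 10 kb on either side. Of 20090 protein-coding genes 29.0% held a shared site, 26.1% a FOXA1dbd-only site and 58.9% a FOXA1nhaa-only site, and 24.5% held FOXA1nhaa-only sites with no FOXA1dbd site at all. Only 504 genes (2.51%) held FOXA1dbd-only sites and no FOXA1nhaa site. Long genes hold more sites, so densities per Mb are given beside counts. Over the territories of all protein-coding genes the densities were 7.49 shared, 5.55 FOXA1dbd-only and 41.7 FOXA1nhaa-only sites per Mb. Nothing here measures expression, and a site in a gene does not show that the gene responded.

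Genes of the extracellular matrix, the main product of fibroblasts, held many sites of every class. Of 24 members 14 held a shared site, 15 a FOXA1dbd-only and 22 a FOXA1nhaa-only site, with densities of 18.9, 12.3 and 85.0 per Mb. COL5A2, a chain of type V collagen, held 10 shared, 4 FOXA1dbd-only and 48 FOXA1nhaa-only sites. FBN1, which encodes the microfibril protein fibrillin, held 8, 4 and 29, COL3A1, the type III collagen chain, 2, 4 and 13, and LOX, a collagen cross-linking enzyme, 1, 3 and 10. Fibronectin (FN1) had 0 shared, 1 FOXA1dbd-only and 13 FOXA1nhaa-only sites. LOXL1 and BGN held none. The median gene length was 38.3 kb in this list and 27.3 kb over all genes.

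The TEAD and YAP pathway had the most even balance among the lists with more than 100 sites. Of its 18 members 9 held shared, 14 FOXA1dbd-only and 12 FOXA1nhaa-only sites. Among them 0 held FOXA1nhaa-only sites without a FOXA1dbd site, against 24.5% of all genes. Its members had a median length of 70.65 kb, against 27.3 kb over all genes, and long genes hold more sites. In the TGF-beta list, of median length 79.3 kb, 6 of 24 genes (25%) held FOXA1nhaa-only sites without a FOXA1dbd site. The part of length in the 0 was not tested. The TEAD and YAP densities were 18.1, 15.5 and 68.8 per Mb, which is 2.05 FOXA1nhaa-only sites for each FOXA1dbd site, against 3.203 over all gene territories. TEAD1, a DNA-binding member, held 8 shared, 5 FOXA1dbd-only and 26 FOXA1nhaa-only sites. YAP1, its coactivator, held 3, 1 and 26, WWTR1, the coactivator TAZ, 6, 2 and 14, VGLL3, a TEAD cofactor, 6, 4 and 18, and the kinase gene LATS2 4, 3 and 4. AMOTL1 held 0 shared, 4 FOXA1dbd-only and 14 FOXA1nhaa-only sites.

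The TGF-beta pathway had higher densities of all 3 classes than gene territories as a whole, with members whose median length was 79.3 kb. Of 24 members 14 held shared, 11 FOXA1dbd-only and 21 FOXA1nhaa-only sites, and the densities were 14.6, 8.18 and 58.3 per Mb. LTBP1, which stores latent TGF-beta in the matrix, held 8, 5 and 26 sites of the 3 classes. The receptor gene TGFBR2 held 4, 3 and 6, and SMAD2, a signal transducer, 3, 1 and 18. TGFB1, which encodes a ligand of the pathway, held none. Of 25 transcription factors of fibroblasts 11 held shared, 9 FOXA1dbd-only and 18 FOXA1nhaa-only sites, at 11.5, 8.81 and 56.99 per Mb. RUNX1 held 15, 15 and 47, TCF4 8, 3 and 40, and ZEB2, a repressor of epithelial genes, 4, 6 and 24. ZEB1 and PRRX1 held mainly FOXA1nhaa-only sites, with 0, 1 and 24 and with 0, 0 and 9.

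Genes of tissues where FOXA1 normally acts held shared and FOXA1nhaa-only sites at lower densities than all genes, while their FOXA1dbd-only densities lay on both sides of the value for all genes. Of 20 liver transcription factors 3 held shared, 2 FOXA1dbd-only and 11 FOXA1nhaa-only sites, and 9 held FOXA1nhaa-only sites without any FOXA1dbd site. Their densities were 1.98, 2.64 and 18.5 per Mb, below those of all genes in each class. NR5A2, a nuclear receptor gene, held 1, 3 and 7 sites and NR1H4, the bile acid receptor gene, 1, 0 and 5. Of 22 secreted liver proteins 1 held a shared site, 3 FOXA1dbd-only and 9 FOXA1nhaa-only sites, at 1.25, 6.24 and 22.5 per Mb. AFP (alpha-fetoprotein) held 0, 1 and 7, and ALB (albumin), whose enhancer is a classic FOXA target, 0, 0 and 1. Of 17 hormone-response genes 4, 4 and 7 held sites of the 3 classes, at 3.12, 6.24 and 25.6 per Mb, with ESR1, the oestrogen receptor gene, at 2, 6 and 18. Olfactory receptor genes, which are not expressed in fibroblasts, held shared sites in 10 of 399 cases and FOXA1nhaa-only sites in 110, and 93 of these had no FOXA1dbd site. Their densities were 1.16, 2.44 and 14.7 per Mb.

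The remaining lists hold shorter genes, and their densities of shared and of FOXA1dbd-only sites lay between 5.55 and 7.94 per Mb. Of 36 other forkhead genes 8 held shared, 8 FOXA1dbd-only and 16 FOXA1nhaa-only sites, led by FOXP1 (7, 5 and 45), and the densities were 7.31, 5.55 and 43.2 per Mb at a median length of 6.57 kb. Of 14 AP-1 subunit and related genes 2, 3 and 6 held sites, and JUN held 2 shared sites and no private ones. That list held 3, 3 and 9 sites in all, at 6.32, 6.32 and 18.9 per Mb. Of 66 cytosolic ribosomal protein genes 12, 12 and 28 held sites, at 7.94, 7.41 and 25.95 per Mb and a median length of 5.55 kb. The HOX genes, whose territories overlap, held 4 sites of each class when every site was counted once, or 7.53 per Mb.

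The genes with the most sites were long. PRKG1, a cGMP-dependent protein kinase gene of 1308 kb, held the most shared sites (22, with 16 FOXA1dbd-only and 107 FOXA1nhaa-only). ARID5B, a chromatin regulator gene of 195 kb, held 21, 5 and 37. DST, which encodes a cytoskeletal linker, held 21, 11 and 91, ADK, adenosine kinase, 20, 8 and 45, and VPS13B 20, 8 and 90. FOXA1dbd-only sites were most numerous in the helicase gene ASCC3 (18), the glypican gene GPC6 (18), NAALADL2 (17), PRKG1 (16) and RUNX1 (15). FOXA1nhaa-only sites were most numerous in NEGR1 (132), MAGI2 (123), RBMS3 (119), DPYD (115) and NAALADL2 (111), all of which also held FOXA1dbd sites. CFTR, the chloride channel gene, NTNG1, PCDH9 and ZNF280D each held 22 FOXA1nhaa-only sites and 0 FOXA1dbd sites. In the other direction CDH26, LPCAT1, MARCHF10, MDGA2 and PIP5K1A each held 3 FOXA1dbd-only sites and 0 FOXA1nhaa sites, which in the 836 kb of MDGA2 is a low density of both.

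At the scale of 1 Mb the lists ran together. Over 2820 windows of 1 Mb with any site, the Spearman correlation of the 2 site counts was 0.905, a description in which the parts of mappability and gene content were not tested. Of 1551 windows with at least 30 FOXA1nhaa sites 4 held 2 or fewer FOXA1dbd sites. The window chr7:117000001-118000000, which contains CFTR, held 36 FOXA1nhaa sites, 31 FOXA1 rows and 0 FOXA1dbd sites. These windows were singled out after their values were seen.

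The overlap differed little between chromosomes apart from X and 19, while the densities varied widely. FOXA1dbd sites were overlapped by FOXA1nhaa in 52.0% to 58.3% of cases on the other autosomes, in 41.0% (34.2 to 48.1) of 188 on chromosome 19 and in 27.9% (20.4 to 36.9) of 111 on X. The X chromosome had 0.735 FOXA1dbd sites per Mb against 10.7 on the autosomes, which is 14.6-fold lower. For FOXA1nhaa the densities were 5.07 and 39.0, 7.70-fold lower, and for FOXA1 rows 14.7 and 57.1, 3.88-fold lower. Chromosome 19 had the lowest autosomal density in both lists (3.37 and 9.73 per Mb) and chromosome 6 the highest (12.8 and 48.3). Chromosomes 22 (5.90 and 21.03) and 16 (6.199 and 21.49) were also low. The Y chromosome is not described. Copy number and the peak threshold were not tested as parts of the low counts on X.

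**Figure D5:**
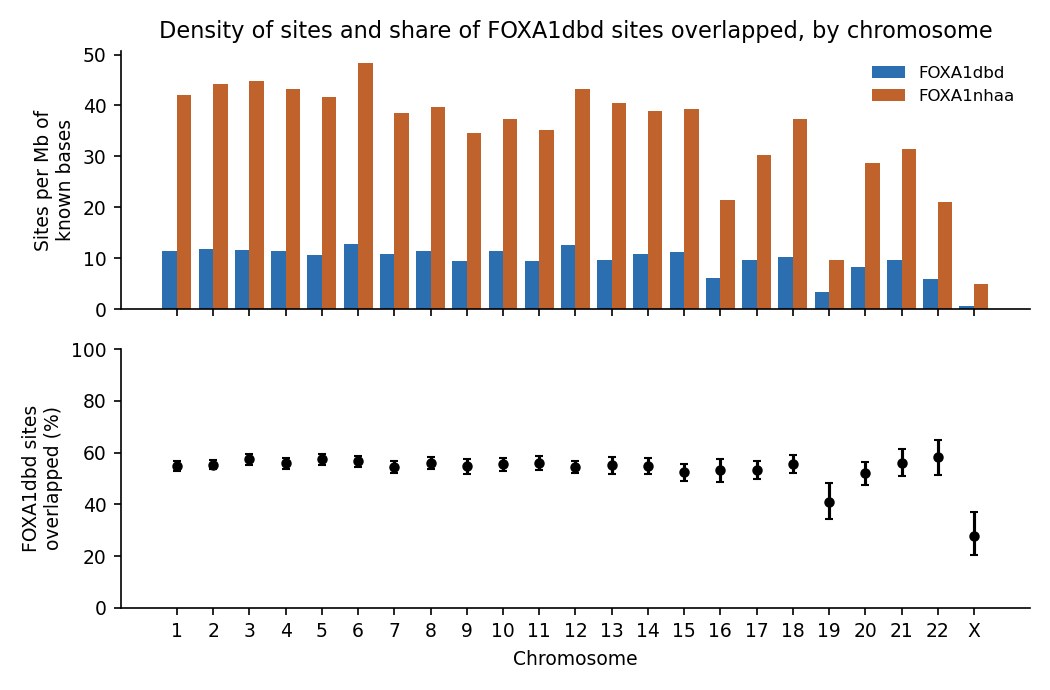
Sites per Mb of known bases in each list (top) and share of FOXA1dbd sites overlapped by FOXA1nhaa with 95% Wilson intervals (bottom, %) for chromosomes 1 to 22 and X. X has the lowest bars in both lists (0.735 and 5.07 per Mb) and the lowest share (27.9%), followed by chromosome 19 (41.0%).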

How the data were processed

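The lists compared are the peak lists of HALO-tagged FOXA1dbd and FOXA1nhaa in BJ fibroblasts. Each deposited row gives a score, a ratio (the fold enrichment), a −log10 p-value, a −log10 q-value and a summit offset. These are values of the authors' peak calls and were used only within a list. Per the submitters' processing notes, the tools were Bowtie2 2.3.4.1, Picard, GATK 4.2.6.0, bedtools 2.27.1, MACS2 2.2.7.1 and deepTools 3.5.0, and the build was hg19. Whether peaks were called on pooled libraries, how inputs were used and why many FOXA1dbd rows end where FOXA1 rows end is not given in the sources used here. Read depth is unknown, so no limit of detection is given. The other lists used were those of FOXA1, FOXA1rraa and HNF4A, and their deposited values were not used beyond position.

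Rows with equal coordinates were merged (28850 FOXA1dbd rows gave 28831 sites, and no FOXA1nhaa row was repeated). Overlap was at least 1 bp. Sequence windows of 200 bp were centred on summits that fell inside their row, and otherwise on midpoints. The genome was GRCh37, annotated with lifted GENCODE 44 genes. A site was assigned to a start within 1000 bp, then to an exon, an intron or the space between genes. Shared sites were read at the FOXA1dbd row unless stated. Hexamer, alternation and tandem shares of the genome are over every 50th window. Python 3.11.15 with numpy 2.4.6, pandas 2.3.3, SciPy 1.17.1 and pysam 0.24.0 was used, and the code was tested on simulated data. No p-value was computed, because each construct has 1 list.

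Sites were named by rule: the 8 highest of each class by fold, or for shared sites by the lower of both within-list percentiles, among rows with the most frequent prefix. Printed sequences were taken in the same order, leaving out chromosome 8. Genes were named as the 5 with most sites of a class and as list members with the most sites, beside members with few or none named for contrast after their values were seen. The classes, motifs and gene lists were chosen with earlier results of these data known. Alternatives were the overlap rule, the top 50% by fold, the most frequent prefix, chromosomes 1 to 22, midpoints, a 100 bp window and a 2500 bp distance to starts. Added after seeing the data were the AP-1 shares under these settings, FOXA1dbd rows with no FOXA1 edge and FOXA1nhaa rows inside FOXA1 rows.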

Additional observations from a re-analysis of the deposited data

How the results depend on the processing

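Under the alternatives 24 values stayed within the counting interval of the reported value and 33 moved outside it. With centres within 200 bp the shared shares were 46.3% of FOXA1dbd and 12.6% of FOXA1nhaa sites and the FOXA1dbd fold ratio 1.03. With an overlap of 50% of the shorter row the shares were 52.2% and 14.0% and the FOXA1nhaa fold ratio 1.12. With the most frequent peak-name prefix the shares were 50.8% and 12.9%, the fold ratios 1.00 and 1.09, the summit distance 77 bp, the forkhead share of FOXA1nhaa-only sites 12.6% and the AP-1 share of shared sites 21.9%. In the top 50% by fold the shared shares were 35.0% and 9.56%, the summit distance 66 bp, the forkhead share of FOXA1nhaa-only sites 13.5%, the AP-1 shares 19.3% of FOXA1dbd-only and 6.31% of FOXA1nhaa-only sites, and the transcription start shares 8.82% of shared and 8.59% of FOXA1nhaa-only sites. In a central 100 bp window the forkhead shares of FOXA1dbd-only, shared and FOXA1nhaa-only sites were 15.1%, 12.1% and 6.77% and the AP-1 shares 9.49%, 11.5% and 3.01%, since a shorter window holds fewer cores. With midpoints the summit distance was 71 bp. Within 2500 bp of a start lay 18.8% of FOXA1dbd-only, 21.5% of shared and 18.8% of FOXA1nhaa-only sites, since the distance is wider. Among alternatives chosen after seeing the data, FOXA1dbd rows with no FOXA1 edge were shared in 60.4% of cases and FOXA1nhaa rows inside FOXA1 rows in 25.2%. Where no construction is named the cause was not tested.

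No paired analysis was possible because the 2 lists carry no replicate numbers, and leaving out a replicate was not possible either. The read depth is unknown, so the absence of a row in a list is not evidence of absent binding.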
